A study of Homo sapiens with 4 samples.

Results

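The control library of a long-read study of neurons made from human pluripotent stem cells is described here on its own: its genes, its cell-type markers, its transcript isoforms and its alternative exons. The members were all reads of the 1 library that the labels call control, out of 4 libraries in the series, and no treatment comparison was made. The cells came from KOLF2.1J, an established induced pluripotent stem cell line. They carried doxycycline-inducible human NGN2, a transcription factor that drives neuronal fate, and a dCas9-BFP-KRAB construct for CRISPR interference, which all 4 libraries share. A lentiviral non-targeting guide RNA was given and the cells were kept as a puromycin-selected pool, so no gene was targeted and no 5-azacytidine was added. Spheroids formed in medium with BDNF, NT-3 and 2 µg/mL doxycycline and were plated on day 8. The labels give day 12 or day 15 as the harvest, without saying which applied to this library. With 1 library there is no replicate, no test and no SD: intervals below are 95% Wilson intervals for shares and exact Poisson intervals for levels, and cover counting error only.

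A spliced gene can give many transcripts, because exons can be skipped, swapped or started at another place. Short reads see the pieces, while a long read can run through a whole complementary DNA molecule and show which exons it holds together. Neurons are known for heavy use of alternative exons, among them microexons of a few codons in synaptic and cytoskeletal genes and very long exons in the ankyrins. In cells driven by NGN2, the textbook course is loss of pluripotency genes, exit from the cell cycle, and the rise of cytoskeletal, synaptic and glutamatergic genes. The labels call the cells induced cortical neurons.

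The library held 595158 reads assigned to genes, on the assumption that a deposited count of 2 is 1 read, for which the labels give no reason. Of these, 380226 were also given to a transcript, 107292 of them as full-length reads, and 36.1% of gene reads (36 to 36.2%) had no transcript. Where a read fitted several transcripts the authors' program divided it among them, and 210957 transcript reads were assigned to 1 transcript alone. At least 10 reads were seen for 11417 genes, at least 100 for 1118 and at least 500 for 10. The 10 genes with the most reads held 1.05% of all reads and the top 100 held 5.84%, so no gene dominated the library. The read-weighted median transcript was 4227 bases long, with 5% of reads on transcripts under 1248 bases and 5% on transcripts over 10927 bases. A long read stands for 1 molecule, so reads were not divided by length. Because molecules of some lengths may be read more often than others, levels per kb of the main transcript, scaled to the same total as CPM, are given beside comparisons between genes.

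The genes with the most reads were a mix of neuronal and general genes. ANK2 (chromosome 4, 112818032 to 113384221, hg38) encodes ankyrin-B, which ties membrane proteins to spectrin in axons, and had 1069 reads, or 1796 CPM (reads scaled to a common total of gene reads). EBF1, a transcription factor of early neurons, followed with 691 reads. KALRN, an exchange factor at dendritic spines, had 625. The microtubule proteins MAP1B and MAP2 had 573 and 540, and CLASP2, which binds growing microtubule ends, had 557. ADGRL2, an adhesion receptor of synapses, had 565 reads and ROBO2, a receptor for the guidance cue SLIT, had 393. General genes made up much of the rest of the first 20: the RNA-binding protein HNRNPK with 546, the kinases MAP4K4 with 533 and CSNK1A1 with 392, beta-actin (ACTB) with 427, YWHAZ with 424, RTN4 with 391, the clathrin heavy chain CLTC with 390 and the chromatin gene SETD5 with 388. TTC3 had 423, the host transcript SNHG14 494, and MT-ND5, encoded by mitochondrial DNA, 436.

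Most of these top genes are long, and many of their reads were not tied to a transcript. For ANK2, 74.5% of gene reads had no transcript, for KALRN 85.4%, for ADGRL2 74.3% and for SETD5 79.4%, against 11.5% for CSNK1A1 and 15.1% for YWHAZ. By transcript reads alone the highest of the genes reported here were MAP1B at 441, HNRNPK at 382, YWHAZ at 360 and the nuclear noncoding RNA MALAT1 at 350. Of the 20 genes with the most gene reads, 8 were among the first 20 by transcript reads and 5 among the first 20 per kb. The first 20 per kb include short RNA genes without transcript reads, such as RNU7-187P with 18 gene reads on 68 bases. On the per kb scale ACTB had 1188 and HNRNPK 953, above ANK2 at 375 and MAP2 at 280, so the position of ANK2 as the first gene holds for gene reads and not per kb. MT-ND5 had a transcript for 19 of its 436 reads.

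**Figure D1:**
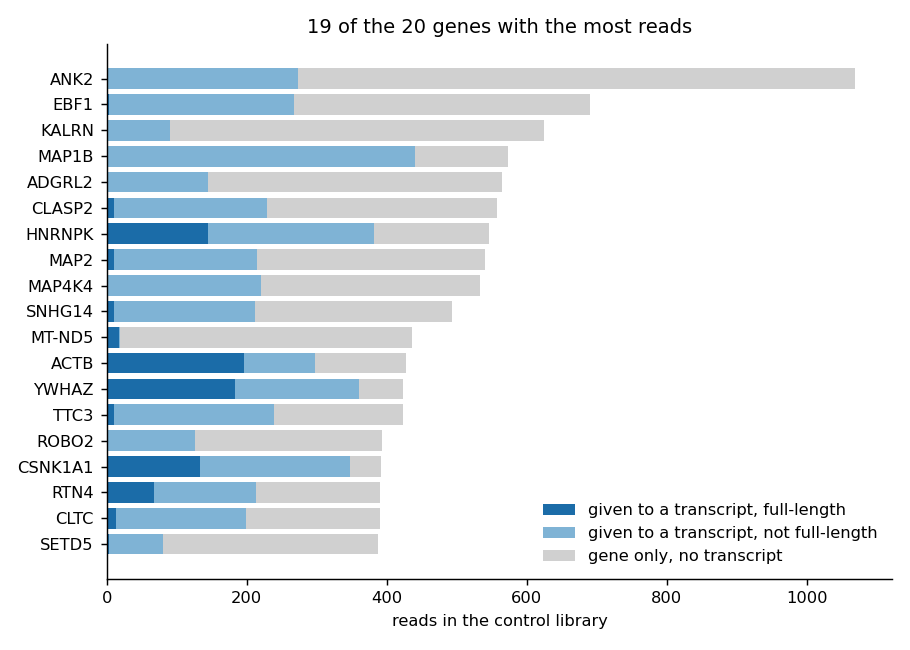
Bars give the reads of 19 of the 20 genes with the most reads in the control library, split into full-length transcript reads, other transcript reads and reads with a gene but no transcript. The grey part is the larger part of the bar for ANK2, EBF1, KALRN, ADGRL2, CLASP2, MAP2, MAP4K4, SNHG14, MT-ND5, ROBO2 and SETD5. Full-length reads are plain for ACTB, YWHAZ and HNRNPK.

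Genes of the neuronal state were present throughout. All 15 genes of a neuron list had at least 10 reads and 8 had at least 100, with 2325 reads in all, or 3907 CPM (3749 to 4069). Over all 19854 protein-coding genes 52.4% had at least 10 reads and 5.47% at least 100. MAP2 led with 540 reads, followed by the neurofilament light chain NEFL with 343, the adhesion molecule NCAM1 with 264 and doublecortin (DCX), a microtubule protein of young neurons, with 247. NEFM had 138, the RNA-binding protein ELAVL3 124, the growth-cone protein GAP43 118 and STMN2, a regulator of axonal microtubules, 117. The lower end was SYN1, a synaptic vesicle protein, with 24, RBFOX3 (the antigen NeuN) with 35 and SNAP25, part of the vesicle fusion machinery, with 40. Per kb the order changed: NEFL came first at 482.5, GAP43 second at 397 and STMN2 next at 310.0, above MAP2 at 280. DCX, at 132, fell behind NEFM at 213. By transcript reads NEFL also came first with 268, before MAP2 with 215 and NCAM1 with 209.

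The transmitter and regional markers gave a mixed profile. SLC17A6, the vesicular glutamate transporter VGLUT2, had 101 reads, while SLC17A7 (VGLUT1) had 17. The AMPA receptor subunits GRIA4, GRIA2 and GRIA1 had 113, 100 and 36, and GRIN1, the obligate NMDA receptor subunit, had 1. Of the reads of GRIA4, GRIA2 and GRIA1, 44, 24 and 25 had a transcript. Of the 7 GABAergic markers, which mark inhibitory neurons, GAD1 had 10 reads, 1 of them with a transcript. GAD2 was at 0 (a count that allows up to 3) and the list summed to 18. In the cholinergic set SLC5A7, the choline transporter, had 50 reads, of which 18 had a transcript. SLC18A3 had 16 reads and CHAT 8. Markers of dopamine and serotonin neurons had at most 3 reads each.

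The label's regional identity, cortical, was checked against 12 genes. POU3F2 and CUX1, which are also used outside the cortex, had 98 and 97 reads. CUX2 had 35, EMX2 26, TBR1 16 and FEZF2 12, and BCL11B and NEUROD6 were at 0. A list of 10 peripheral or hindbrain neuron genes held 336 reads against 327 for the cortical list. Which list is higher depends on the scale: per kb they stood at 540.5 and 319. By transcript reads, scaled to the total of transcript reads, they stood at 618 and 676. In the peripheral or hindbrain list the highest were ISL1 with 145, the receptor RET with 87 and POU4F1 (BRN3A), a sensory neuron factor, with 39. PRPH, an intermediate filament of peripheral neurons, had 26. Per kb ISL1 stood at 305 and POU3F2 at 101. By transcript reads ISL1 had 79 and POU3F2 82, and by full-length reads 26 and 82. The HOX genes, which mark hindbrain and spinal levels, had 12 reads over 39 genes, with none at 10 or more. At least 10 reads were reached by 8 of the 12 cortical genes, 7 of the 10 peripheral or hindbrain genes and 52.4% of protein-coding genes. In a bulk library a low level may be few cells or little RNA per cell, which cannot be told apart.

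Genes of dividing cells and of progenitors were also read at appreciable levels. All 14 proliferation genes had at least 10 reads, as did 52.4% of protein-coding genes. The 14 summed to 1009 reads or 1695 CPM (1592 to 1803). CENPF, a kinetochore protein, had 173, the proliferation antigen MKI67 142, topoisomerase TOP2A 109 and TPX2 97. On transcript reads alone, scaled to the total of transcript reads rather than gene reads, the list stood at 2209, and per kb at 1111. The progenitor list had 733 reads or 1232 CPM: PAX6, a factor of neural progenitors, gave 290 of them, PROM1 117, the intermediate filaments NES and VIM 64 and 61, SOX1 41 and SOX2 30, while HES5 and FABP7 had 3 each. Among 11 pluripotency genes LIN28A had 129 reads, DNMT3B 77, LIN28B 64 and DPPA4 48. The core factor POU5F1 had 2 reads and NANOG was at 0. NEUROG2 itself, the gene of the inducible factor, had 8 reads. Whether cycling cells, progenitors and neurons are separate cells cannot be read from 1 bulk library.

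Other cell types were scarce. The astrocyte list had 122 reads, nearly all from SLC1A2, GJA1 and SLC1A3 with 48, 43 and 29, which progenitors also express, while GFAP had 1 read and AQP4 and ALDH1L1 were at 0. The oligodendrocyte list had 72 reads, with MBP at 16 and SOX10 and MOG at 0. Microglial genes summed to 9 reads, and 4 of 6 were at 0. Endothelial, epithelial or endodermal, neural crest and mesenchymal lists summed to 20, 36, 45 and 76 reads. TFAP2A with 34 and COL1A1 with 33 were the highest genes of these 4 lists.

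**Figure D2:**
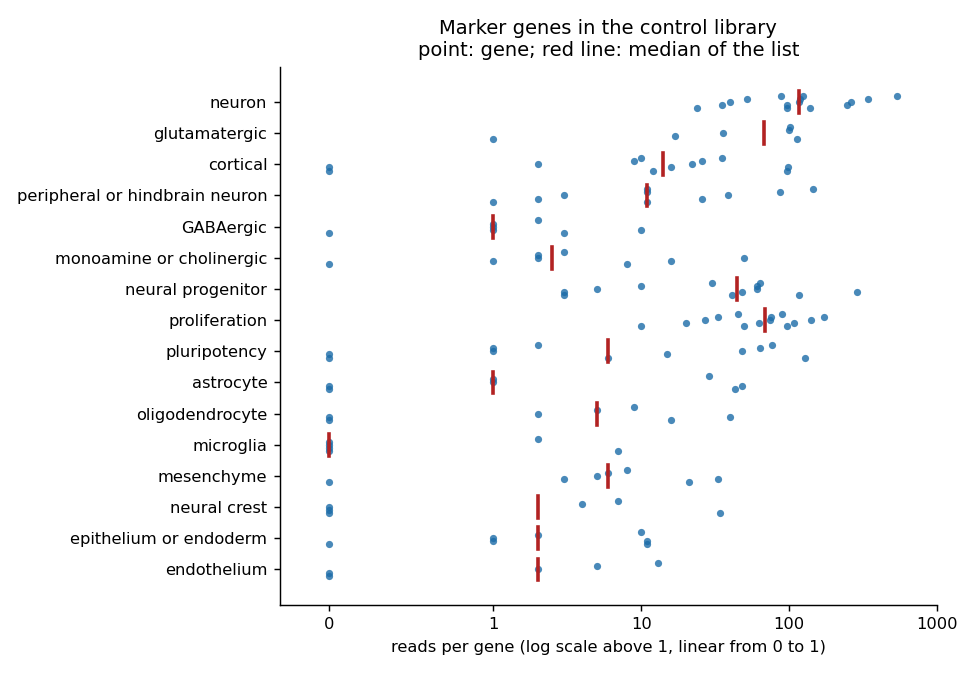
Each point is a marker gene, placed by its reads in the control library, and the red line is the median of its list. The 15 neuron genes lie between 24 and 540 reads and the 14 proliferation genes between 10 and 173, while 4 of the 6 microglial genes lie at 0.

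Functional gene groups, neuronal and general alike, had most of their members at 10 reads or more, against 52.4% of protein-coding genes. In the axonal cytoskeleton and motor list 44 of 44 genes had at least 10 reads and 29 had at least 100, with 8825 reads in all. The presynaptic release list had 27 of 30 genes at 10 reads or more, led by the calcium sensor SYT1 with 213, DNM1 with 155 and NSF with 142, while SYP, a vesicle membrane protein, had 7 and CPLX1 6. Postsynaptic genes reached 10 reads in 27 of 32 cases, with NLGN1 at 157 and DLG4 (PSD-95) at 134, and SHANK3 and GRM5 at 1. Among 26 voltage-gated channel genes CACNA1C had 187 reads, of which 9 had a transcript, and the embryonic sodium channel SCN3A had 107 against 58 for SCN2A and 3 for SCN1A. Adhesion and guidance genes reached 10 reads in 47 of 49 cases, with ROBO2 at 393, N-cadherin (CDH2) at 321 and ROBO1 at 273. The general lists reached this level as fully: all 62 RNA-binding genes had at least 10 reads and 42 had at least 100, and 53 of 54 chromatin regulators had at least 10.

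Short, usually abundant mRNAs were sparse. The 84 ribosomal protein genes together had 1450 reads, 0.244% of the library, and 49 of them reached 10 reads, against 52.4% of protein-coding genes. GAPDH had 37 reads, ferritin FTH1 14, FTL 7 and thymosin TMSB10 6, on main transcripts of 1285, 1203, 871 and 461 bases. For comparison ACTB, with a main transcript of 1812 bases, had 427 reads. Transcripts under 1 kb took 3.44% of transcript reads and those of 8 kb and over 13.4%. Levels of genes with short transcripts in this library are thus low beside those of long ones, and the part of the library preparation in that was not tested.

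How many isoforms a gene gave was asked for the 6414 genes with at least 20 transcript reads. An isoform was counted when it had at least 2 reads. The median gene had 3 isoforms, with quartiles at 2 and 4, and the expected number among 20 reads of each gene was also 2.94. No more than 1 isoform was seen in 1386 genes (21.6%), at least 5 in 1009 (15.7%) and at least 10 in 48. These genes have 92414 annotated transcripts, of which 16598 (17.96%) had at least 2 reads. With full-length reads alone the median fell to 1 isoform.

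The main isoform, the one with the most reads, took a median of 70.9% of a gene's transcript reads (quartiles 50 and 91.5%). It took at least 90% in 1732 genes and under 50% in 1592 (24.8% of the genes). In the 6232 protein-coding genes among them the main isoform was an annotated protein-coding transcript in 87.8%, and in 4607 genes it carried the principal tag of APPRIS in GENCODE 29, a mark of the reference protein form. It was a retained-intron transcript in 57 of these genes, a predicted target of nonsense-mediated decay in 37 and unannotated in 223. Over all protein-coding genes retained-intron transcripts held 2.02% of transcript reads and nonsense-mediated-decay transcripts 1.76%.

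**Figure D3:**
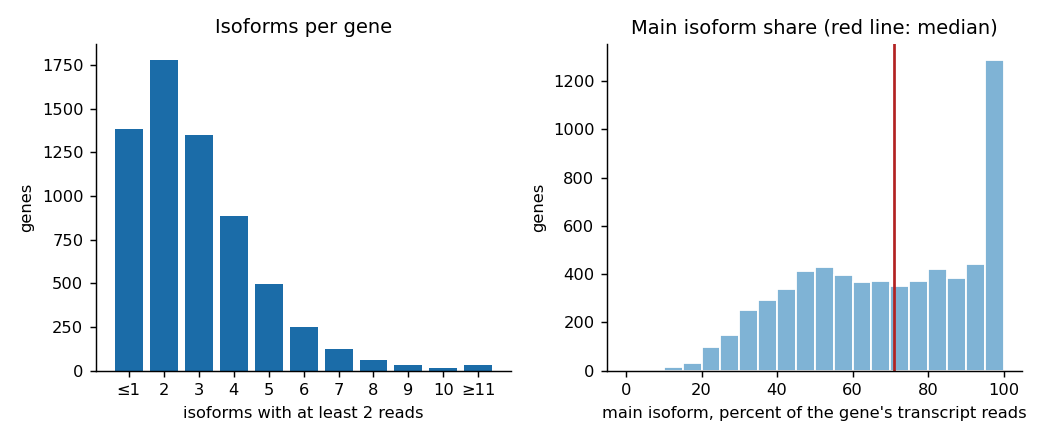
The left panel counts the 6414 genes by their number of isoforms with at least 2 reads, and the right panel by the share of transcript reads that the main isoform took, in steps of 5 percentage points. Genes with 2 isoforms are the most common class, and the share has its highest column at the right end, around a median of 70.9%.

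Some genes spread their reads widely and others did not. MAPK10, a neuronal JNK kinase, had 21 isoforms from 205 transcript reads, SNHG14 20, the chaperone CANX 19 and ANK2 18. These counts include reads that were divided among transcripts. In the same order, isoforms with at least 2 full-length reads numbered 4, 3, 3 and 0. Uniquely assigned reads were 63 of 205, 113 of 212, 46 of 267 and 79 of 273. The lowest main shares among the 399 genes with at least 100 transcript reads were those of the lipid phosphatase MTMR2 with 13.2%, ANK2 with 16.7% (12.9 to 21.7%), the splicing factor HNRNPH1 with 17.5%, WAC with 20.05% and ATP2C1 with 20.4%. At the other end SOX11 and SOX4, single-exon transcription factor genes of young neurons, gave 1 isoform from 283 and 188 transcript reads, as did NUCKS1 from 281. MT-RNR2 did so from 198. The annotation holds 1 transcript each for SOX11, SOX4 and MT-RNR2 and 2 for NUCKS1, so little else could be counted there. It holds 189 for MAPK10, 158 for SNHG14, 47 for CANX and 129 for ANK2. NEFL, with 2 annotated transcripts, gave 99.6% of 268 reads to 1 transcript, and MAP1B, with 6, gave 99.5% of 441. Other cytoskeletal genes had lower main shares, such as DCX with 29.8% over 7 isoforms and MAP2 with 38.1% over 4, and the 40 axonal cytoskeleton genes measured had quartiles of 41.96 and 82.8%. PAX6 had 16 isoforms and a main share of 22.4%, against 97.6% for LIN28A and 95.7% for ISL1.

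Gene classes differed in isoform number. RNA-binding and splicing genes had a median of 5 isoforms and a median main share of 51.6%, and 3.77% of them gave a single isoform. Chromatin regulators had 4 isoforms and 56.3%, axonal cytoskeleton genes 3.5 and 55.3%, postsynaptic genes 3 and 48.8%. Adhesion and guidance genes had 2 isoforms, a main share of 87.2%, and 35% of them gave 1 isoform. Their median main transcript was 7940 bases long, against 4185 bases in the RNA-binding list. Over all genes the median main share rose with length, from 50.8% at 1 to 2 kb to 81.9% at 8 kb and over. By full-length reads, measured in fewer genes, it was 78.6% under 1 kb, 60.1% at 1 to 2 kb and 66.7% at 8 kb and over. By those reads axonal cytoskeleton genes stood at 78.2%, postsynaptic 61.5%, RNA-binding 54.0%, chromatin 47.6% and adhesion 92.5%. The classes also differ in depth and in the number of annotated transcripts, and the part of these in the class values was not tested. At an equal 20 reads per gene, the median expected number of isoforms was 4.11 in RNA-binding and 3.82 in chromatin genes. It was 3.25 in axonal cytoskeleton, 3 in postsynaptic and 2.26 in adhesion genes.

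A read was counted as full-length by the authors' program, and the measure varied with both transcript length and exon number. It made up 28.2% of transcript reads (28.1 to 28.4%). By transcript length the share was 39.5% under 1 kb, 47.8% at 1 to 2 kb, 38.2% at 2 to 4 kb, 20.8% at 4 to 8 kb and 9.67% at 8 kb and over. By exon number it was 64.8% for 1 exon, 36.7% for 2 to 5, 25.2% for 11 to 20 and 10.5% for over 20. Within 4 to 8 kb it fell from 79.1% for transcripts of 1 exon to 26.4% for 2 to 5 exons and 10.8% for over 20 exons. Short transcripts and those of 1 exon did not follow these falls. Under 1 kb the share was 23.9% for 1 exon, 40.4% for 2 to 5 and 43.1% for 6 to 10, and transcripts of 1 exon rose from that 23.9% to 53.8% at 1 to 2 kb, 72.9% at 2 to 4 kb and 79.1% at 4 to 8 kb, with 65.5% at 8 kb and over. SOX4 and SOX11, with 1 exon each, had 99.5% and 97.9% full-length reads on annotated lengths of 4869 and 9002 bases. How far those reads run along the annotated length was not measured, so the count does not show that whole molecules were read. NEFL had 69.0%, with 185 of 268 reads, and MT-RNR2 68.7%. C6orf62 had 71.4%. CEP170, USP9X, CENPF, ADGRL2 and ANKRD17, each with at least 143 transcript reads, had 0 full-length reads, and MAP1B had 2 of 441.

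Functional classes followed the same lines. Housekeeping genes had 46.6% full-length reads (44.8 to 48.4%), and their median main transcript was 2193 bases long. Chromatin regulators had 6.40% (5.68 to 7.2%), voltage-gated channels 6.20% (4.62 to 8.46%) and adhesion genes 8.98% (8.03 to 10.0%), with median main transcripts of 8598, 9102 and 7940 bases. Clustered protocadherins had 66.2%, on 433 transcript reads, and members of those clusters share exons, so reads may be divided between neighbours. Gene reads without a transcript rose from 30.7% in genes spanning 10 to 50 kb to 48.5% (in 2131 genes) in those spanning 200 kb and over. They were 34.1% in protein-coding genes, 57.7% in lincRNA genes and 53.5% in antisense genes. The strand handling of the counting is not given in the sources used here, so reads of an antisense gene and of its partner may not be told apart.

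Unannotated transcripts, those added to the annotation by the authors' program, held 7.08% of transcript reads (7.00 to 7.16%). The extended annotation is shared by all 4 libraries, treated ones among them, so a transcript in it need not have been found in this library. At least 2 reads of this library were seen for 3942 of the 10347 unannotated transcripts. Most joined known parts: 55.5% of unannotated reads lay on a new combination of annotated introns and 30.7% on a new intron between annotated exons. A new first exon accounted for 4.16%, a new internal exon for 3.10%, a new last exon for 2.68% and a gene without annotation for 2.59%. Of unannotated reads 40.7% were full-length, against 27.3% of annotated ones, with read-weighted median lengths of 3551 and 4326 bases.

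The unannotated share fell with the depth of the gene. It was 17.0% in genes with under 5 transcript reads, 10.6% at 5 to 19, 7.79% at 20 to 49, 4.99% at 50 to 99, 3.49% at 100 to 199 and 1.76% at 200 and over. The fall was present within protein-coding genes of 1 length class: from 12.6% at 5 to 19 reads to 5.75% at 100 to 199 reads for main transcripts of 2 to 4 kb, and from 8.31% to 4.39% for those of 4 to 8 kb. At least 1 unannotated read was seen in 28.5% of the 6414 genes, and in 206 genes unannotated transcripts held at least 50% of reads. By type, protein-coding genes had 6.63%, lincRNA genes 9.08% and antisense genes 11.1%. Among functions, adhesion and guidance genes stood at 12.6% (11.5 to 13.8%), but NCAM1 and PTPRS gave 234 of their 401 unannotated reads, and the other 47 genes stood at 5.99% (5.17 to 6.94%). Also by function, voltage-gated channels were at 0 of 622 reads (up to 0.614%), housekeeping genes at 1.31% and chromatin regulators at 2.05%.

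**Figure D4:**
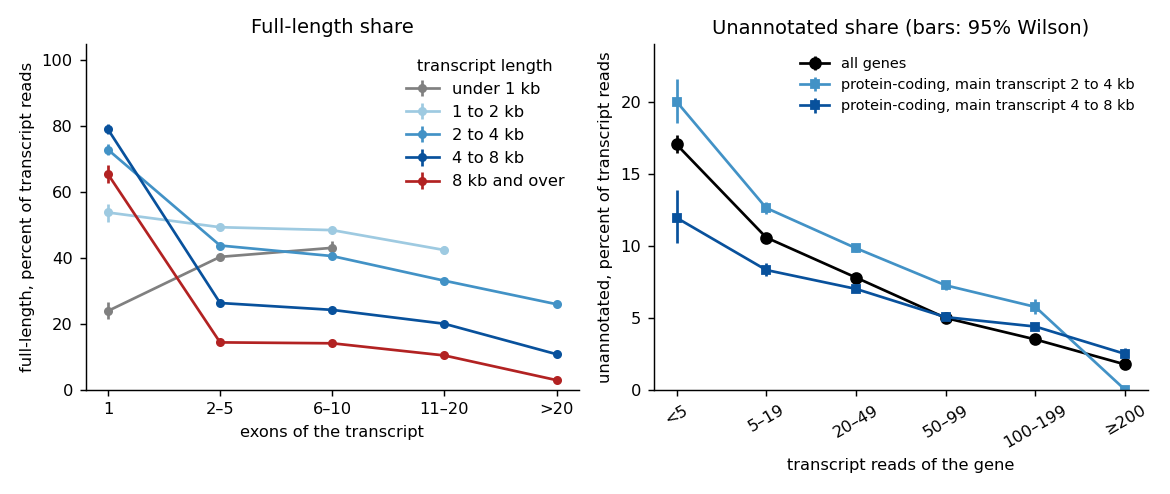
The left panel plots the full-length share of transcript reads by exon number for 5 classes of transcript length, and the right panel the unannotated share by transcript reads of the gene, with 95% Wilson intervals. Points with under 100 reads are not drawn. Transcripts of 1 exon stand apart on the left at 4 to 8 kb, with 79.1%, those under 1 kb go the other way, and the share for all genes falls on the right from 17.0% to 1.76%.

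The 10 genes with the most unannotated reads had over 50% of their transcript reads on unannotated transcripts. NCAM1 had the most unannotated reads, 121 of 209 (57.7%, 51.1 to 64.4%), all on 1 transcript of 18 exons and 6346 bases that joins annotated introns in a new way. It was full-length in 14 reads and uniquely assigned in 72. PTPRS, a receptor phosphatase of synapses, had 113 of 193 (58.7%) on such a transcript of 29 exons. The other genes in this group of 10 were the mitochondrial ribosome gene MRPS16 with 96.2 of 107, the cyclin CCNL2 with 89.7 of 106, the RNA-binding gene RBMX with 86.4 of 115, the neuronal RNA-binding gene ELAVL2 with 80.1 of 134, PRRT2 with 77.8 of 79, the transcription factor ONECUT1 with 73 of 84, WSB1 with 69.1 of 135 and HIP1 with 63 of 64. The HIP1 transcript had a new first exon and rested on 1 uniquely assigned read, while that of ONECUT1 had a new intron and 73 uniquely assigned reads. Of the 399 genes with at least 100 transcript reads, 335 had no unannotated read.

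Alternative exons were then read as inclusion, the share of reads on transcripts that hold an exon among reads on transcripts that hold or skip it. A microexon was set at 27 bases or fewer. Over protein-coding genes 24933 internal exons in 4953 genes had at least 20 such reads and are annotated both as included and as skipped. Of 646 microexons 34.7% had an inclusion between 10 and 90%, against 19.5% of exons of 28 to 60 bases, 13.1% of 61 to 120 and 11.7% of 121 to 240. Median inclusion was 11.9% for microexons, 32.4% at 28 to 60 bases and 92.1% at 61 to 120. A length that is a multiple of 3, which keeps the reading frame, was found in 74.1% of microexons and 42.1% of exons of 61 to 120 bases. Microexons that keep the frame had a median inclusion of 23.9%, and those that do not, 0%. In the 225 microexons with at least 10 full-length reads the median was 0% by those reads and 4.97% by all transcript reads, so full-length reads gave the lower level in the same exons.

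The microexons below were chosen after their values were seen, because they fall between 10 and 90% in genes known for neuronal splicing. Sequences are from GENCODE 29 transcripts (GRCh38, which is hg38), written 5′ to 3′ along the transcript, with the exon in capitals and 15 bases of the neighbouring exons on each side in lower case. They were SRC chr20:37386460-37386477 on the plus strand, L1CAM chrX:153863368-153863379 and chrX:153873228-153873242 on the minus strand, NRCAM chr7:108237752-108237769 on the minus strand, CASK chrX:41622617-41622634 on the minus strand, CLTC chr17:59687001-59687021 on the plus strand, DCTN1 chr2:74363614-74363628 on the minus strand, KIF1B chr1:10273014-10273031 on the plus strand, DNM2 chr19:10808569-10808580 on the plus strand and ITSN1 chr21:33802430-33802444 on the plus strand.
SRC, 18 bases: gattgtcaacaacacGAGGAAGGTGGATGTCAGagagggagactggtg
L1CAM, 12 bases: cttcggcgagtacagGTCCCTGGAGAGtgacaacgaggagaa
L1CAM, 15 bases: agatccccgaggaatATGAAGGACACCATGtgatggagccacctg
NRCAM, 18 bases: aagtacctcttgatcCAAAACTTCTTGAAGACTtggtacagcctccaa
CASK, 18 bases: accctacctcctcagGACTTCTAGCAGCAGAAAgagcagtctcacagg
CLTC, 21 bases: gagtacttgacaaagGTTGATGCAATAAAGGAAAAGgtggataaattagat
DCTN1, 15 bases: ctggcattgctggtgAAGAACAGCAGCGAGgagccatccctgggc
KIF1B, 18 bases: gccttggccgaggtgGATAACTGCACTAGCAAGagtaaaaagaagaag
DNM2, 12 bases: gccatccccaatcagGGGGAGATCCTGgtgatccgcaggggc
ITSN1, 15 bases: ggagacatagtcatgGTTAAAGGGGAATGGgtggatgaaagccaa

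Each of these 10 exons has a length that keeps the frame. The neuronal exon of SRC, which lies in the SH3 domain of the kinase, was in 40.4% of its reads (23.6 to 57.6%), 11 including and 17 skipping, and in 5 of the uniquely assigned reads against 7 that skipped it. Both microexons of L1CAM, an axonal adhesion molecule whose short form is made outside neurons, were in 83.8% (69.9 to 91.1%), with 36 uniquely assigned reads for and 7 against. Inclusion is counted by transcript and both exons had the same counts, 39 including and 8 skipping, so they are not separate measurements. The related gene NRCAM included its 18-base exon in 82.5%. CLTC included its 21-base exon in 19.4% (14.5 to 25.6%), DCTN1, a subunit of the dynein activator, its 15-base exon in 60.3%, and the kinesin KIF1B its 18-base exon in 58.0%. In the list of 77 genes fixed for isoforms, 172 exons in 57 genes lay between 10 and 90%. CASK stood at 73.1% (by uniquely assigned reads 14 for and 13 against), DNM2 at 71.2% and the endocytic scaffold ITSN1 at 37.0%. The 36-base exon of NRCAM was in 40.03% and the 63-base exon of ENAH, an actin regulator, in 19.3%. The L1CAM microexons and the 18-base exon of NRCAM were thus mostly included and the CLTC exon mostly skipped, with intervals that do not overlap.

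The splicing regulators PTBP2, RBFOX2 and NOVA1 carried alternative exons of their own. PTBP2 holds a 34-base exon (chr1:96806419-96806452) whose skipping shifts the frame and which PTBP1 is known to repress outside neurons. It was included in 86.4% of reads (78.1 to 91.3%), 92 against 14. The 78-base exon of PTBP1 was in 49.3%, the 40-base exon of RBFOX2 in 82.3% and the 72-base exon of NOVA1 in 88.6%. A second NOVA1 exon, of 102 bases, was in 29.95% (22.3 to 39.5%). The PTBP2 exon and its neighbours read as follows, with the exon in capitals.
PTBP2, 34 bases: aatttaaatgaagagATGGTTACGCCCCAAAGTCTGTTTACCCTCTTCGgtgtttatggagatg

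Counted by reads divided among transcripts, very long exons of ANK2, ANK3 and MAP2 were more often included than skipped. For MAP2, uniquely assigned and full-length reads went the other way. ANK2 included its giant exon of 6255 bases (chromosome 4, 113353045 to 113359299), which makes the large axonal form of ankyrin-B, in 81.0% (75.4 to 85.1%), 201 reads against 47.2. In ANK3, whose giant exon makes the ankyrin-G of the axon initial segment, the exon of 7812 bases (chromosome 10, 60068637 to 60076448) was in 63.6% (53.6 to 71.5%). MAP2 included its exon of 3726 bases, which separates the high-molecular-weight from the juvenile low-molecular-weight form, in 73.7%. By uniquely assigned reads it was included in 13 and skipped in 16. All 11 full-length MAP2 reads skipped it and none of the ANK2 reads that bear on its exon were full-length, so these shares rest on reads that cover part of the transcript. The exon of 5451 bases in MACF1 was in 58.1% and that of 5508 bases in DST, its relative, in 16.5%.

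In APP, the amyloid precursor, the 168-base exon of the Kunitz inhibitor domain was in 47.9% (38.7 to 56.96%) and the 57-base exon that follows it in 17.6%. The form that lacks both is the one typical of neurons, and its annotated transcript took 49.7% of the 111 APP reads, 55.2 reads. NCAM1 included an exon of 816 bases near its end in 60.6% and the 30-base VASE exon, which dampens its growth-promoting action, in 27.7%. All 14 full-length NCAM1 reads held the first and lacked the second. Pairs of exons that replace one another were also split. SNAP25 used the first of its 118-base pair in 66.8% and the second in 33.2%, on 14.6 and 7.24 reads. DNM1 used the first of its 139-base pair in 75.3%. The 115-base pair that gives the flip and flop forms of GRIA4 was at 47.8% and 52.2%, but of its uniquely assigned reads 6 held the first exon and 0 the second.

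MAPT, the gene of tau, showed how far the answer can turn on which reads are used. The fetal form of tau lacks both 87-base exons near the start of the protein. The first 87-base exon stood at 52.4% by divided reads and in 1 uniquely assigned read against 10 that skipped it. The transcript with the highest MAPT estimate, 27.7 reads and 12 exons, had 0 full-length and 0 uniquely assigned reads, while one of 9 exons and 1107 bases had 15.2 reads, 8 of them full-length and 10 uniquely assigned.

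**Figure D5:**
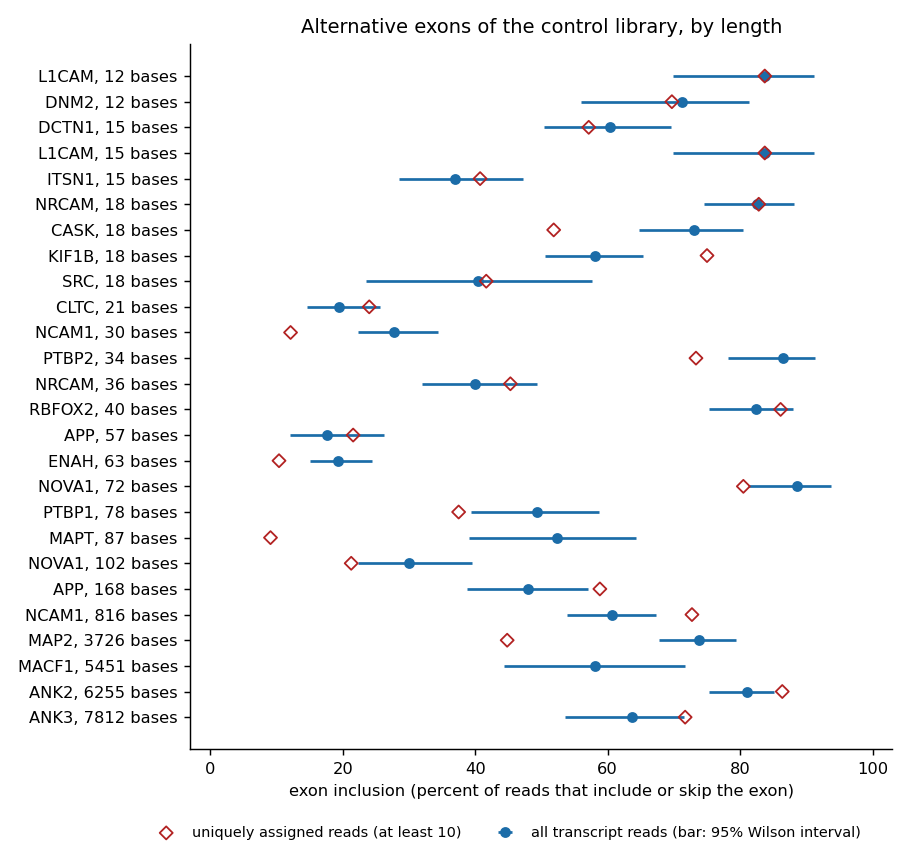
Exons of the report are ordered by length, with inclusion by all transcript reads as blue points with 95% Wilson intervals and by uniquely assigned reads as red diamonds where there were at least 10. Both measures are close for L1CAM, NRCAM and SRC, and lie apart for the 87-base exon of MAPT, MAP2 and the 30-base exon of NCAM1.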

How the data were processed

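Polyadenylated RNA (about 300 ng total RNA) was sequenced as PacBio Iso-Seq with MarathonRT first-strand synthesis, per the labels' protocols. Per the file headers, the authors aligned reads with minimap2 to hg38 and Bambu extended the annotation. Versions are not given in the sources used here. The authors deposited estimated counts per gene, per transcript and for full-length reads, whole-number counts of uniquely assigned reads, and CPM values, whose denominator was the sum of the deposited gene counts. The annotation file gives exon coordinates. Every gene count was even, and deposited counts were divided by 2 to give reads. The labels do not say why counts are even, so this is an assumption. Without it read numbers would be higher, intervals narrower and read minimums easier to reach. Symbols were matched for 11265 of the 11417 genes with at least 10 reads. Calculations used Python 3.11.15, pandas 2.3.3, numpy 2.4.6 and scipy 1.17.1, and were tested on simulated data. There were no tests, since the library is unreplicated. Depth limits every share, through the intervals given beside them. Genes were named by rule: the 20 with the most reads, marker genes with at least 100 reads and the 3 highest of each list, the 5 highest and 5 lowest genes with at least 100 transcript reads for each isoform measure, the 10 with the most unannotated reads, and exons of an isoform list between 10 and 90%. Others were named after their values were seen. Y-linked genes were left out. The measures and gene lists were chosen with earlier results of these data known. Alternatives are in the closing section. Some items that these rules would name are not reported here.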

Additional observations from a re-analysis of the deposited data

How the results depend on the processing

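Read depth limits most single-gene values, and molecules copied by PCR are not independent. Taking deposited counts without halving would give 1190316 reads and 14421 detected genes, and a minimum of 1 read 27144 genes. Of the 20 genes with the most reads, 5 stayed in the first 20 per kb and 8 by transcript reads, a setting chosen after seeing the data. The neuron list stood at 2750 per kb and 4181 by uniquely assigned reads, and the progenitor list at 875 per kb. The proliferation list stood at 1111 and 2015 in these settings and, by transcript reads, at 2209. In the same order the pluripotency list stood at 463, 787 and 707. Each setting was scaled to the total of its own kind of reads. The neuron list stayed the highest of these 4 and pluripotency the lowest under each setting. Median isoforms fell to 1 with full-length reads and lay between 2 and 3 under the 4 other settings. The median main share was 64.7% by full-length reads, 72.7% by uniquely assigned reads and 65.8% in genes with at least 100 transcript reads. The unannotated share was 10.2% by full-length reads, 7.95% by uniquely assigned reads and 4.52% of all gene reads. The full-length share was 18.03% of all gene reads, and by length of the main transcript 30.9% (under 1 kb), 45.6% (1 to 2 kb), 38.1% (2 to 4 kb), 23.2% (4 to 8 kb) and 12.6% (8 kb and over). Median microexon inclusion was 0% by full-length reads, over the 225 with at least 10. Of 172 exons of the isoform list between 10 and 90%, uniquely assigned reads put 72 within the interval, 36 above, 36 below and left 28 with under 10 reads, and full-length reads left 106 with under 10. The causes were not tested. No paired analysis was possible because there is 1 library.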

Other observations

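Several genes outside the lists were read at levels near those of the leading markers, and were singled out after their values were seen. The transcription factor ONECUT2 had 173 reads, 172 of them with a transcript and all on 1 isoform. EBF3 and EBF2, relatives of EBF1, had 150 and 71 reads, and EBF3 gave 46.9% of its transcript reads to its main isoform against 95.8% for EBF2. NEUROD1, a target of NGN2, had 20 reads, all with a transcript. Per kb, 2 identifiers without a symbol stood first: ENSG00000280614 with 382 reads, 6 of them with a transcript, and ENSG00000280800 with 328 reads, 5 of them with a transcript. Both are annotated as lincRNA genes with a transcript of 923 bases on chromosome 21, starting at 8393419 and 8210384. Where their reads without a transcript came from was not tested.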
